A study of Mus musculus with 18 samples.

Results

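Vps26c, Atg3 and Pdia5 are 3 genes of mouse chromosome 16 whose messages stood above every control array in all 3 arrays of fibroblasts with an extra chromosome 16. They were chosen by those log2 values, among 12393 genes on the array, of which 414 lie on chromosome 16 and 243 of those had enough signal to be tested. They are read by 4 of the 20380 probe sets used. The cultures were mouse embryo fibroblasts (MEFs), connective tissue cells grown from embryos, kept for 2 passages in DMEM with fetal calf serum, glutamine, penicillin and streptomycin. There were 9 control lines with normal chromosomes (Wt), 1 line with 3 copies of chromosome 1 (Ts1), 4 with 3 copies of chromosome 13 (Ts13), 3 with 3 copies of chromosome 16 (Ts16) and 1 with 3 copies of chromosome 19 (Ts19), each on 1 array. The sources used here give neither mouse strain nor embryo age. Titles name separate lines, but whether every line goes back to a different embryo is unstated, and the p-values then reflect only the scatter of these samples, which may be technical. The cultures were measured in bulk, so a lower message could come from fewer cells of a type or from less RNA per cell, and these cannot be told apart.

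The 3 genes act in different membrane compartments. Vps26c, formerly Dscr3, encodes the arrestin-like subunit of retriever, which with Vps35l, Vps29, the CCC complex and the adaptor Snx17 returns receptors such as beta-1 integrin from endosomes to the cell surface. Atg3 encodes the E2-like enzyme that transfers LC3 and GABARAP proteins onto phosphatidylethanolamine, the lipidation step of autophagosome growth, after activation by the E1-like Atg7. Pdia5 encodes a protein disulfide isomerase of the endoplasmic reticulum (ER), where disulfide bonds of secreted proteins such as collagen are formed and rearranged, and it is known to act on Atf6, a sensor of unfolded protein. What the 3 genes shared by the way they were picked is their chromosome and their rise.

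The stretches before the annotated starts are shown because these 3 messages were high in the same arrays. All 3 genes matched the promoter table of RefSeq (GRCm38.p6), which gives 250 bases before a start. Each line is written 5′ to 3′ on the strand of the gene, and capitals mark the motifs named below.
Vps26c (chr16:94526630-94526879, minus strand): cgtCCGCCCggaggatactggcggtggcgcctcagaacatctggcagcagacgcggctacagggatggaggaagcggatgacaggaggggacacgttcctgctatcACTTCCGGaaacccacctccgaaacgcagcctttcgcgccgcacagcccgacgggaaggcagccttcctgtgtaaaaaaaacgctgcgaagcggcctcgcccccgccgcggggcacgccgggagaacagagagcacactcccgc
Atg3 (chr16:45158579-45158828, plus strand): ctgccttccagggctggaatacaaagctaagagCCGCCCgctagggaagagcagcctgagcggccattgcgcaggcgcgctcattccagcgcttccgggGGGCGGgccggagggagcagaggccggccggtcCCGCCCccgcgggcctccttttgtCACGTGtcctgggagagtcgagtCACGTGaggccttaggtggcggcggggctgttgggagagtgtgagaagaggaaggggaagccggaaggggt
Pdia5 (chr16:35490920-35491123, minus strand, leaving out the last 46 bases, which lie inside the annotated gene): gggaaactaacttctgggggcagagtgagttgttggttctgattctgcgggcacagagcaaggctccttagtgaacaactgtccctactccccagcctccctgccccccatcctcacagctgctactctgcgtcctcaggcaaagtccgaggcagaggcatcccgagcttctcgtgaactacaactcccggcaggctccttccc

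The windows held 65.6% G and C in Vps26c, 68.0% in Atg3 and 60.4% in Pdia5. On both strands, 9 motifs were searched: the GC box (GGGCGG), the CCAAT box (CCAAT), the E-box (CACGTG), the CLEAR element (an E-box with GT before and AC after it), the cAMP response element (TGACGTCA), the ER stress response element (a CCAAT box and a spaced CCACG), the NRF1 site, an ETS site (CCGGAAGT) and the TATA box (TATAAA). Positions are counted back from the annotated start. Vps26c had 1 GC box at -247 and 1 ETS site at -144, both on the opposite strand. Atg3 had 3 GC boxes at -217, -151 and -118 and 2 E-boxes at -94 and -71. Pdia5 had no match to any of the 9 in its 250 bases. Among 7844 promoters of tested genes, a GC box was present in 60.6%, an E-box in 8.66%, at least 2 E-boxes in 0.739% and the ETS site in 6.35%. No motif was present in all 3 windows, and a match is a description of letters, not of a bound factor.

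The arrays differed in RNA quality, read from how far the 3′ Gapdh control probe set exceeded the 5′ one. The excess was between -0.20 and 1.41 on the log2 scale on 15 arrays. It was 6.55 on Ts16 replicate 1, 6.94 on Ts13 replicate 3 and 5.57 on Ts13 replicate 4, called 3′-biased arrays here. Fibroblast markers passed the signal filter in 10 of 10 cases and averaged 12.56 to 14 per array in controls and 13.25 to 13.89 in Ts16. Macrophage markers passed in 2 of 10, with array means of 2.53 to 4.73 in controls, 2.76 to 2.89 in Ts16 and 2.76 to 5.88 in Ts13. Endothelial and erythroid markers passed in 0 cases. Smooth muscle markers passed in 6 of 6, skeletal muscle in 1 of 5, epithelial in 2 of 5 and neural in 1 of 5.

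Vps26c was measured by 1 probe set (1415745_a_at). Its log2 values in Ts16 were 11.48, 11.31 and 11.61 in replicates 1 to 3. The 9 controls ran from 9.88 through a median of 10.28 to 10.44. The groups did not overlap, and 0.87 separated the lowest Ts16 array from the highest control. The Ts16 mean was 11.47 ± 0.15 (SD, n = 3) and the control mean 10.21 ± 0.21 (SD, n = 9). The difference was 1.26 ± 0.17 (log2, SE), a 2.39-fold higher level.

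Atg3 had 2 probe sets of very unlike signal. On 1448993_at, which stood for the gene, Ts16 replicates 1 to 3 had 13.27, 13.07 and 13.23 and the controls ran from 12.08 through 12.22 to 12.54, so the groups lay 0.53 apart. The Ts16 mean of 13.19 ± 0.11 (SD, n = 3) was 0.94 ± 0.13 (log2, SE) above the control mean of 12.25 ± 0.14 (SD, n = 9), or 1.92-fold. The other probe set, 1418179_at, stayed between 2.41 and 2.97 on all 18 arrays, near the bottom of the scale, with means of 2.57 in Ts16 and 2.55 in controls. It therefore carries no measurable Atg3 signal here, and the Atg3 result rests on 1 probe set. Averaging both gives a difference of 0.48.

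Pdia5 had 1 probe set (1424650_at). Its values in Ts16 replicates 1 to 3 were 12.32, 12.22 and 12.40. The controls ran from 11.11 through 11.43 to 11.71, 0.51 below the lowest Ts16 array. The mean was 12.31 ± 0.09 (SD, n = 3) in Ts16 and 11.39 ± 0.22 (SD, n = 9) in controls, a difference of 0.92 ± 0.15 (log2, SE) or 1.90-fold. The Ts16 arrays differed less among themselves than the 9 controls did, for each of the 3 genes, which the choice of the genes favours. Control replicates 1 to 3 share the first numbers of their titles with the Ts16 arrays. They differed less than Ts16 for Vps26c (10.25 to 10.39) and Atg3 (12.15 to 12.32). For Pdia5 they differed more (11.50 to 11.71).

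**Figure D1:**
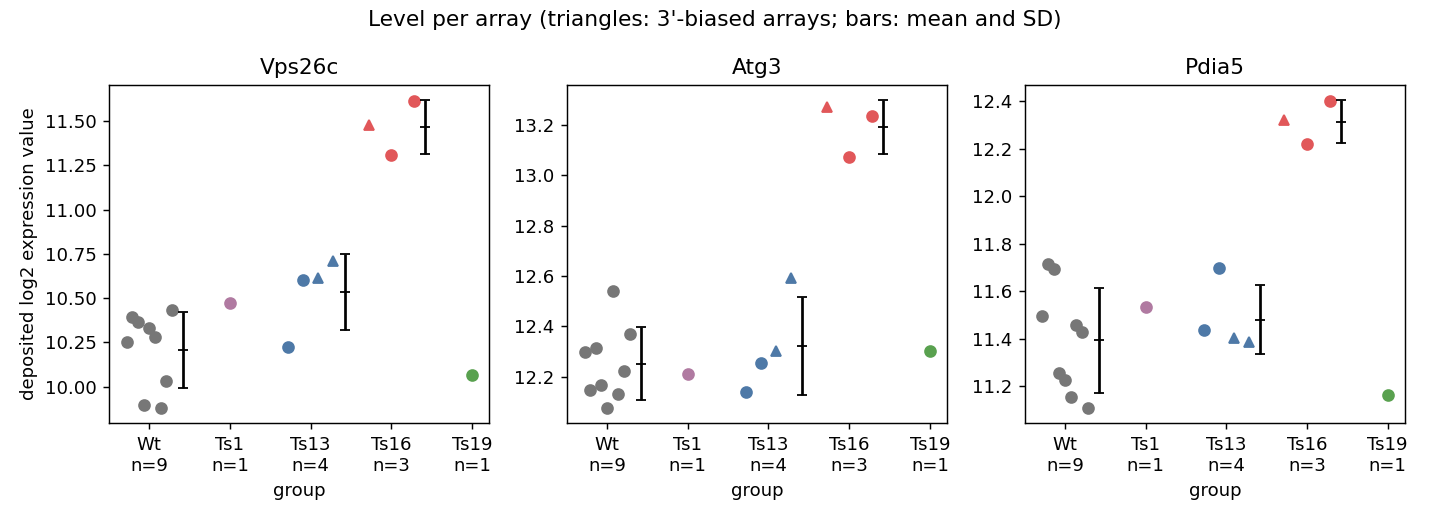
Deposited log2 value of Vps26c, Atg3 and Pdia5 (vertical axis) on each array of the 5 groups (horizontal axis), with the group mean and SD as bars beside groups of more than 1 array and triangles for the 3 arrays with 3′-biased RNA. The 3 Ts16 arrays stand above every other array in each panel, by 0.87, 0.53 and 0.51 from the highest control, and the vertical scales differ between panels.

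Because every Ts16 array had to exceed every control, the sign within each pair was fixed by the choice of the genes, and only the size of the step is described here. Ts16 and control replicates of the same number share the first number of their titles (89 for replicates 1 and 3, 92 for replicate 2). Within 89 only the replicate number sets which arrays are paired. Within the pairs Vps26c was higher by 1.22, 0.92 and 1.25. Atg3 was higher by 0.97, 0.92 and 0.92, nearly the same step in every pair. Pdia5 was higher by 0.83, 0.51 and 0.71, a smaller step than against all controls, since its controls of numbers 89 and 92 (11.50, 11.69 and 11.71) were the 3 highest of the 9. With the first number as a block over all 18 arrays the differences were 1.13 for Vps26c, 0.94 for Atg3 and 0.68 for Pdia5. Without the 3′-biased arrays, which removes Ts16 replicate 1, they were 1.25, 0.90 and 0.92.

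In the fit over all genes these 3 were also the only ones past the threshold in Ts16, 3 of 7381 (0.0406%), all of them higher. Since this contrast chose them, nothing is read from that count. Adding either replicate block, or leaving out Ts16 replicate 1 or all 3′-biased arrays, left 0 genes past the threshold, with 6.99% of genes at an unadjusted p under 0.05 in the fit of all arrays.

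The size of the rise did not set these genes apart on their own chromosome. The median Ts16 minus control difference over 243 chromosome 16 genes was 0.61, close to the 0.58 of a 1.5-fold change, against -0.06 for genes elsewhere. Vps26c was the 24th largest, Atg3 the 62nd and Pdia5 the 66th, so that 23, 61 and 65 genes had larger differences. Their spread was small, which a choice by a gap between all Ts16 and all control arrays favours, so the ranks below describe the choice. The SE of 0.13 for Atg3 was the 2nd lowest of the 243, that of Pdia5 the 7th and that of Vps26c the 14th, where the median SE was 0.31. The SD over the 3 Ts16 arrays was 0.15 for Vps26c, 0.11 for Atg3 and 0.09 for Pdia5, against a median of 0.52 for chromosome 16 genes. Over the 9 controls it was 0.21, 0.14 and 0.22 against a median of 0.36.

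**Figure D2:**
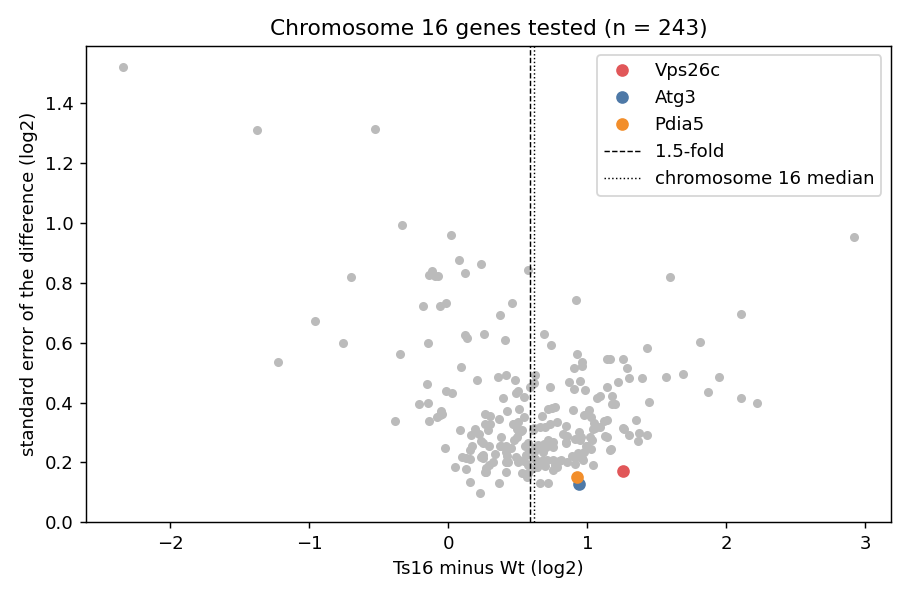
Ts16 minus control difference (log2, horizontal axis) against its standard error (log2, vertical axis) for the 243 tested genes of chromosome 16, 1 point each, with a dashed line at 1.5-fold and a dotted line at the chromosome median of 0.61. Vps26c (1.26), Atg3 (0.94) and Pdia5 (0.92) lie to the right of the median at the lower edge of the cloud, with SEs of 0.17, 0.13 and 0.15.

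The 3 genes were picked by their values on these Ts16 arrays, so those values by array are a description. Among the chromosome 16 genes above every control, Gnb1l and Spice1 had the largest Ts16 SDs, 0.89 and 0.69 (named after their values were seen). Most of those genes had SDs below the chromosome median of 0.52, so a small spread went with the choice. The median chromosome 16 gene stood 0.87 above the control mean on the 3′-biased Ts16 replicate 1, 0.66 on replicate 2 and 0.44 on replicate 3. Vps26c was at 1.27, 1.10 and 1.41 on replicates 1 to 3, Atg3 at 1.02, 0.82 and 0.98, and Pdia5 at 0.93, 0.83 and 1.01. Atg3 was highest on replicate 1, as the chromosome median was, while Vps26c and Pdia5 were highest on replicate 3, and replicate 2 gave the lowest value of each gene. The 3′-biased replicate 1 thus had the highest chromosome median, and the part of RNA quality in that was not tested.

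Standing above every control in all 3 Ts16 arrays was shared by 50 of the 243 chromosome 16 genes (20.6%), by 33 genes elsewhere (0.462%) and by 83 of 7381 in all (1.12%). By the width of the gap Vps26c ranked the 1st on chromosome 16, Atg3 the 3rd and Pdia5 the 4th. The 2nd was Adamts5, a protease of cartilage proteoglycans, with a gap of 0.63, a difference of 1.43 and an SE of 0.29 (named after its values were seen). Just inside the limit were Eif4a2, an RNA helicase of translation initiation, with a gap of 0.01, Ift57, a component of ciliary transport, with 0.03, and Nudt16l1 with 0.03. Just outside were Parl, a mitochondrial membrane protease, at -0.0067, Cct8, a chaperonin subunit, at -0.0079, and Dlg1, a scaffold of cell junctions, at -0.01. The differences of these 6 ran from 0.36 for Eif4a2 to 0.84 for Ift57. When all 15 other arrays are taken as the bar, 32 chromosome 16 genes cleared it (13.2%), and the 3 genes cleared it by 0.60, 0.48 and 0.51.

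**Figure D3:**
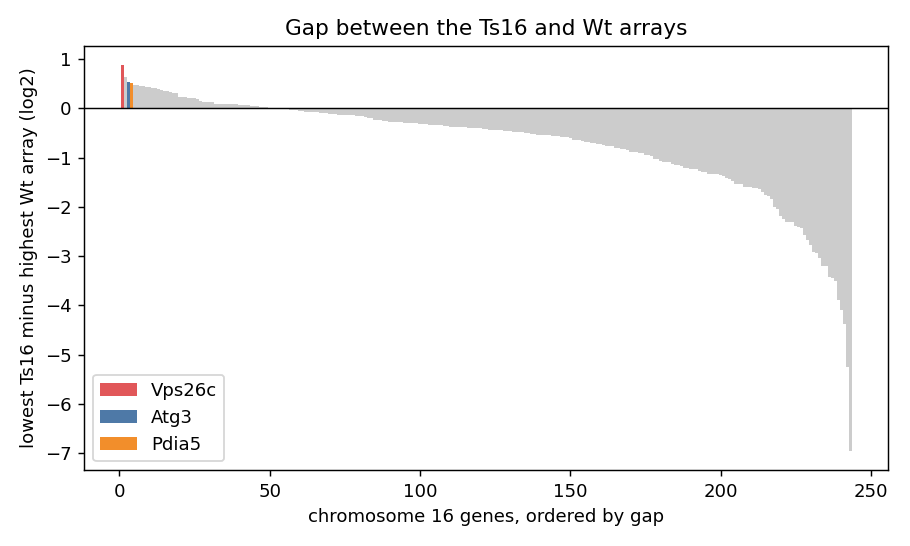
Lowest Ts16 array minus highest control array (log2, vertical axis) for the 243 tested chromosome 16 genes in order of that gap (horizontal axis, 1 bar per gene). Of these, 50 bars are above 0, and the coloured bars of Vps26c (0.87), Atg3 (0.53) and Pdia5 (0.51) are the 1st, the 3rd and the 4th.

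Genes next to the 3 on the chromosome were mostly higher in Ts16, as were most genes of the chromosome, and none passed the threshold. Of the 18 neighbours (the 3 nearest tested genes on each side, in the order of GRCm38.p6), 17 exceeded the control mean, as did 215 of all 243 chromosome 16 genes (88.5%), and the median difference was 0.75 against 0.61 for the chromosome. For 5 of the 18 (27.8%) all 3 Ts16 arrays were above every control, against 20.6% of the chromosome. With limma 0 passed and 12 had an unadjusted p under 0.05, against 6.99% of all tested genes. That share was not counted over chromosome 16 alone, so nothing is read from the 12 about these places on it. The adjusted p ran from 0.058 to 0.79. The standard errors of the neighbours ran from 0.18 to 0.43, wider than those of the 3 genes, whose choice favours low ones.

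Around Vps26c the median of 6 neighbours was 0.71. Pigp, a subunit of the enzyme that starts GPI anchor synthesis, was at 1.00 ± 0.25 (log2, SE, n = 3 against 9; limma adjusted p = 0.18), with Ts16 arrays at 12.19, 11.65 and 12.05 and controls up to 11.44. Chaf1b, a chromatin assembly factor, was at 1.17, Ttc3, a ubiquitin ligase, at 0.64, Dyrk1a, a protein kinase, at 0.76 and Psmg1, a proteasome assembly chaperone, at 0.67. Ets2, a transcription factor gene lying between Dyrk1a and Psmg1 in this order, was at -0.38 ± 0.34 (adjusted p = 0.79), the only neighbour below the control mean. Its Ts16 arrays were at 10.53, 9.17 and 9.74, inside the control range of 9.04 to 10.87.

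Around Atg3 the median was 0.45, and 0 of 6 neighbours had all Ts16 arrays above every control. Abhd10, a mitochondrial thioesterase, was at 1.05 ± 0.33 (limma adjusted p = 0.38) with unlike Ts16 values of 10.14, 9.43 and 8.45. Slc35a5, of the nucleotide sugar transporter family, was at 0.75, Gtpbp8 at 0.49 and Nectin3, a cell adhesion molecule, at 0.42. Phldb2, which binds cortical microtubule complexes, was at 0.27 and Ccdc80, a secreted matrix protein, at 0.25. Atg3 at 0.94 was thus higher than 5 of these 6.

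Around Pdia5 the median was 1.15, and Pdia5 itself at 0.92 was lower than 5 of its 6 neighbours. Mylk, the myosin light chain kinase of contractile cells, had the largest difference at 1.86 ± 0.43 (limma adjusted p = 0.14), yet its Ts16 arrays of 11.99, 12.45 and 11.03 overlapped controls that ran from 9.01 to 11.43. Fam162a, a mitochondrial protein induced by hypoxia, was at 1.04 ± 0.19 (adjusted p = 0.058), with Ts16 arrays at 14.21, 13.51 and 13.58 above a highest control of 13.10. Hacd2, an enzyme of very long fatty acid elongation, was at 1.17 ± 0.25 (adjusted p = 0.098), Parp9, an interferon-induced ADP-ribosyltransferase family member, at 1.20, Kpna1, a nuclear import adaptor, at 1.12, and Sec22a, a vesicle protein of the ER, at 0.58. Without the 3′-biased arrays Mylk was at 1.78, Fam162a at 0.82, Hacd2 at 1.08 and Abhd10 at 0.65.

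**Figure D4:**
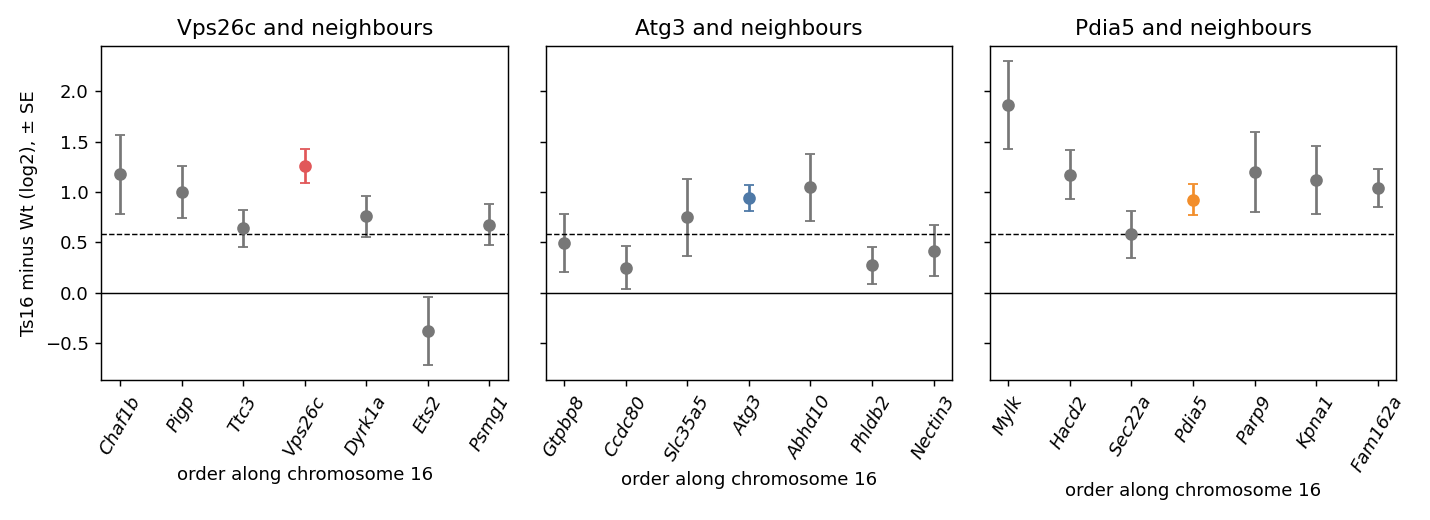
Ts16 minus control difference (log2, vertical axis, with SE bars) of each of the 3 genes, in colour, and of the 3 nearest tested genes on each side, in grey, in order along chromosome 16 (horizontal axis), with a dashed line at 1.5-fold. Neighbour medians are 0.71 around Vps26c, 0.45 around Atg3 and 1.15 around Pdia5, and Ets2 is the only point below 0.

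The arrays of the other trisomies were not used to choose the genes, although the controls were, and there each difference was tested. The choice favours genes with low control values, so differences from these same controls may lean upward. Chromosome 16 genes had medians of 0.05 in Ts13, 0.01 in Ts1 and -0.10 in Ts19. None of the 3 genes passed the threshold in any of these comparisons, where limma called 130 of 7381 genes in Ts13 (1.76%), 3 in Ts1 (0.0406%, of which 0.0271% higher and 0.0135% lower) and 0 in Ts19 (0%). An unadjusted p under 0.05 was reached by 6.29% of genes in Ts1 and by 1.96%, or 145 genes, in Ts19.

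Vps26c came closest, in Ts13. Its Ts13 values were 10.22, 10.60, 10.61 and 10.71 in replicates 1 to 4, against the control range of 9.88 to 10.44. In 3 of 4 arrays it was above every control, and in all 4 it was above the controls of its own first number, by 0.30 to 0.83 over the 3 first numbers. How many of all tested genes did the same was not counted, so nothing is read from these counts. The difference was 0.33 ± 0.15 (log2, SE, n = 4 against 9; 95% interval 0.0030 to 0.65; limma adjusted p = 0.22). Its unadjusted p was under 0.05, as was that of 21.9% of all genes in this comparison. Replicates 3 and 4, the highest, are the 3′-biased arrays, and without them the difference was 0.20; their part in it was not tested further.

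Atg3 in Ts13 had values of 12.14, 12.25, 12.30 and 12.59, of which only replicate 4 was above every control. The difference was 0.07 ± 0.11 (95% interval -0.17 to 0.31; limma adjusted p = 0.74), and -0.06 without the 3′-biased arrays. Pdia5 in Ts13 had values of 11.43, 11.70, 11.40 and 11.39, all inside the control range, with a difference of 0.09 ± 0.14 (95% interval -0.20 to 0.38; adjusted p = 0.73). With the first number as a block Pdia5 was at 0.21 ± 0.15 (log2, SE) in Ts13 and at 0.68 in Ts16. Ts13 was not tested against Ts16.

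With 1 array each, Ts1 and Ts19 give wider intervals. In Ts1, Vps26c was at 10.47, Atg3 at 12.21 and Pdia5 at 11.53, with differences of 0.26, -0.04 and 0.14. The Ts1 value of Vps26c was just above the highest control (10.44), while those of Atg3 and Pdia5 were not above theirs. In Ts19 they were at 10.07, 12.30 and 11.16, with differences of -0.14, 0.05 and -0.23. The 95% intervals ran from -0.46 to 0.84 over the 3 genes in Ts1 and from -0.74 to 0.47 in Ts19, and every limma adjusted p rounded to 1.0. By group mean, Vps26c was ordered Ts16, Ts13, Ts1, Wt, Ts19, Atg3 Ts16, Ts13, Ts19, Wt, Ts1, and Pdia5 Ts16, Ts1, Ts13, Wt, Ts19. Steps between the other groups are not ordered by these data, since no difference from the controls passed the threshold and Ts1 and Ts19 have 1 array each.

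All 3 genes were chosen for being high on the same 3 arrays, so their likeness over arrays that include Ts16, and the share of chromosome 16 genes among those most like them, follow from the choice. Over all 18 arrays Pearson's r of the log2 values was 0.90 between Vps26c and Atg3, 0.85 between Vps26c and Pdia5 and 0.79 between Atg3 and Pdia5. Over the 15 arrays without Ts16 the same values were 0.46, 0.27 and -0.27. The points also share the controls and the 3′-biased Ts13 arrays, and the values are descriptions.

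Over the 18 arrays the genes most like Vps26c were Atg3 (r = 0.90), Pigx, a subunit of GPI anchor synthesis (0.89), and Tfg, a protein of ER exit sites (0.89). For Atg3 they were Vps26c (0.90), Fam162a (0.86) and Pam16, of mitochondrial protein import (0.85). For Pdia5 they were Tfg (0.89), Mrpl40, a mitochondrial ribosomal protein (0.87), and Dcbld2, a membrane receptor (0.87). All of these lie on chromosome 16, as did 13, 17 and 16 of the top 20 for the 3 genes in turn. Over the 15 other arrays none of the 3 nearest genes was the same for any of them. Vps26c was then most like Ap3s1, an adaptor of endosome to lysosome traffic (0.91), Tmem106b, a lysosomal membrane protein (0.90), and Mfsd1, a lysosomal transporter (0.89). Whether the nearest genes share a function was not tested. On these arrays Vps26c was highest on the 3′-biased Ts13 replicates 3 and 4 (10.61 and 10.71). Atg3 was most like Etfdh (0.78), Cox16 (0.76) and Lztfl1 (0.75), and Pdia5 most like Lpp (0.84), Rexo2 (0.82) and Actn1, an actin cross-linker (0.81). Of the top 20 for each gene, 0, 0 and 1 were then on chromosome 16.

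The partners of the 3 proteins were compared next, from 9 lists of their complexes and pathways. With the 3 genes left out, 116 were on the array and 110 were tested. In Ts16, 0 of the 110 passed with limma in either direction, 11 had an unadjusted p under 0.05, and 49 were above the control mean. Over all tested genes 0.0406% passed and 6.99% had an unadjusted p under 0.05, and the counts of the 110 are near these shares. Their median difference was -0.06, against -0.05 over all tested genes. None of the 110 had all 3 Ts16 arrays above every control, which held for 1.12% of all tested genes. Without Ts16 replicate 1 or without all 3′-biased arrays the count past the threshold was also 0.

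Among retriever and CCC complex genes, 13 besides Vps26c were tested, 0 passed and 8 exceeded the control mean; the median was 0.01 and a range from -0.58 to 0.22. Snx17, the adaptor that selects cargo for retriever, was at -0.48 ± 0.19 (log2, SE, n = 3 against 9; limma adjusted p = 0.61), with Ts16 arrays at 12.19, 12.77 and 12.75 against controls from 12.53 to 13.47, and at -0.29 without the 3′-biased arrays. Ccdc22, a scaffold of the CCC complex, was at -0.58, and at -0.91 without those arrays. The retromer and WASH list, the related sorting machinery, had 0 of 14 past the threshold and a median of 0.00; Snx5, a sorting nexin, was at 0.64 ± 0.26 (adjusted p = 0.61) and Washc3, a WASH subunit, at 0.41. Of 6 cargo receptors 0 passed. App, the amyloid precursor protein, and Itgb5, an integrin beta chain, are on chromosome 16 themselves but were at 0.05 and 0.13, Itga5 was at -0.97 and Lrp1 at -0.57. On the 3′-biased Ts16 replicate 1 Itga5 was at 8.18 and Lrp1 at 10.39, below every control, and without the 3′-biased arrays they were at -0.29 and -0.11.

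Among Atg8 conjugation genes, 11 besides Atg3 were tested, 0 passed and 5 exceeded the control mean; the median was -0.08. Map1lc3b, the main LC3 substrate of Atg3 in many cells, was at 0.04 with Ts16 arrays at 13.59, 13.53 and 13.57, inside the control range of 13.31 to 13.72. Map1lc3a was at -1.60 and Gabarap at -0.62 with all arrays, where replicate 1 had 6.32 and 11.90, and at -0.29 and 0.02 without the 3′-biased arrays. Initiation and lipid transfer genes had 0 of 19 past the threshold and a median of -0.22, with Uvrag, a subunit of a phosphatidylinositol 3-kinase complex, at 0.52 ± 0.20 (limma adjusted p = 0.57) and Atg2b, a lipid transfer protein, at -1.03 ± 0.40 (adjusted p = 0.59). Autophagy receptors had 0 of 9 and a median of -0.20. Retreg1, a receptor for ER fragments, was at -2.94 ± 0.92 (adjusted p = 0.36), with unlike Ts16 values of 8.09, 3.95 and 3.29 and controls from 5.86 to 10.21. It was at -4.43 without the 3′-biased arrays (adjusted p = 0.14). Tax1bp1 was at 0.52.

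Among protein disulfide isomerases, 12 besides Pdia5 were tested, 0 passed and 4 exceeded the control mean; the median was -0.12, with a range of -0.51 to 0.23. Erp44, which retains secretory cargo in the early pathway, was at 0.23 and Tmx2 at -0.32. Txndc11, the other tested member on chromosome 16, was at 0.08, with Ts16 arrays at 6.94, 7.12 and 6.91 inside the control range of 6.25 to 7.48. The ER oxidation list had 0 of 6 and a median of 0.14; Ero1a, the oxidase that recharges protein disulfide isomerase, was at 0.76 ± 0.23 (limma adjusted p = 0.30) and Gpx7, a peroxidase of the ER, at 0.33. The Atf6 and chaperone list had 0 of 21 and a median of -0.16, with 6 genes above the control mean. Dnajb11, an ER co-chaperone on chromosome 16, was at 1.03 ± 0.27 (adjusted p = 0.21), with Ts16 arrays at 12.60, 11.97 and 11.50 and a highest control of 11.64. Sdf2l1, its partner and also on chromosome 16, was at -0.14 (0.21 without the 3′-biased arrays), and Canx, the lectin chaperone calnexin, at -0.38. Of the 5 partner genes on chromosome 16, 4 were above the control mean and 1, Dnajb11, was above the chromosome median of 0.61.

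**Figure D5:**
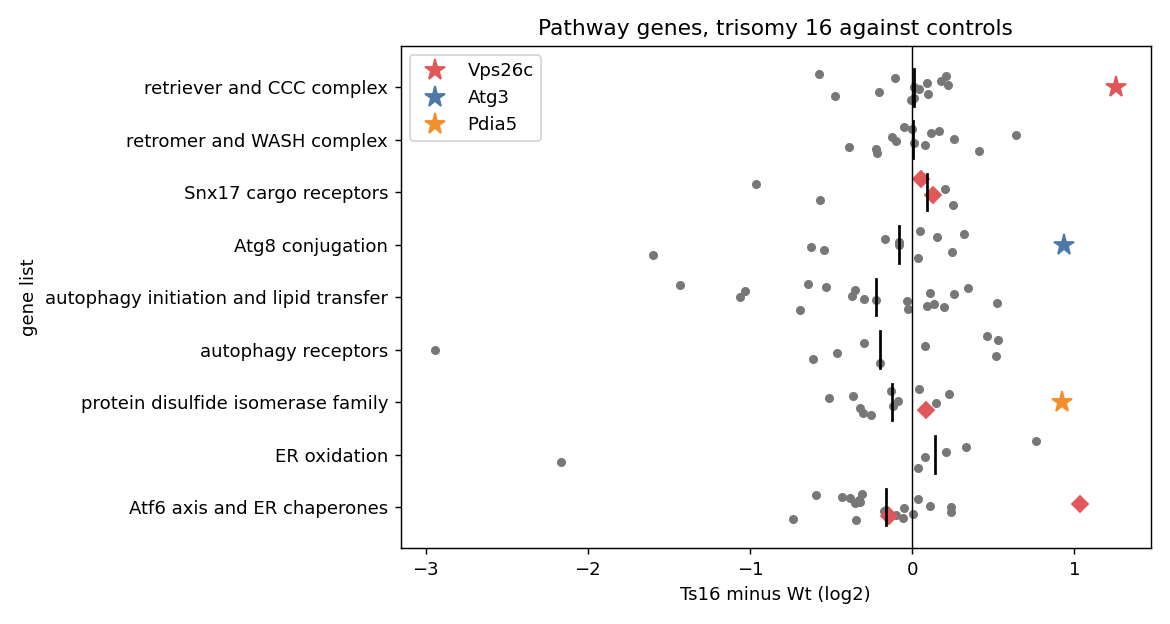
Ts16 minus control difference (log2, horizontal axis) of the 110 tested partner genes in 9 lists (vertical axis, 1 point per gene and list, red diamonds for genes on chromosome 16, black lines at list medians without the stars). The stars of Vps26c (1.26), Atg3 (0.94) and Pdia5 (0.92) lie to the right of every other gene of their own lists. Their choice by this contrast favours that place, so nothing is read from it. List medians run from -0.22 to 0.14.

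In Ts13, 3 of the 110 partner genes rose and 1 fell, against 1.1% of all tested genes that rose and 0.664% that fell. Atg10, the E2-like enzyme of the Atg12 step and itself on chromosome 13, rose by 1.29 ± 0.24 (log2, SE, n = 4 against 9; limma adjusted p = 0.012), with arrays at 7.08, 7.60, 7.54 and 7.95 above every control. Map1lc3b rose by 0.48 ± 0.09 (adjusted p = 0.017), with arrays at 13.90, 14.20, 13.89 and 14.01 above a highest control of 13.72. Wdr45, a phosphoinositide-binding autophagy protein, rose by 1.06 ± 0.21 (adjusted p = 0.017) and Gpx7 fell by 0.95 ± 0.18 (adjusted p = 0.015). Without the 3′-biased arrays these were at 1.09, 0.52, 0.77 and -0.87 and none passed, as with the first title number as a block. Replicate numbers join Ts13 and control lines of unlike first title numbers, so that block is not read here. In Ts1 and Ts19, 0 of the 110 passed.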

How the data were processed

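Messenger RNA of 18 mouse embryo fibroblast cultures was measured on 18 Affymetrix arrays. Per the labels' processing notes the authors used affy and GCRMA, and the deposited values, on a log2 scale, cover 22690 probe sets, 64 of them controls. The sources used here give no version or setting for either tool, nor which arrays were summarised jointly. Arrays give no counting depth, and their number limits the precision.

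A probe set was used where GEO's platform annotation lists exactly 1 gene for it and it is no control (20380 probe sets, of which 20351 matched RefSeq by Entrez identifier). Another 691 had several genes and 1555 had none. The probe set with the highest mean stood for a gene (12393 genes), and the 7381 genes whose log2 values averaged 4 or more over the 18 arrays were tested. The test was limma 3.58.1 in R 4.3.3 (lmFit, eBayes with a trend) over all 18 arrays in 5 groups with 1 shared spread (13 residual degrees of freedom), two-sided, with Benjamini-Hochberg adjustment over all genes and a threshold of 0.05. Trisomies 1 and 19 hold 1 array each and are assumed to vary like the others. The procedure was tested on simulated data.

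Vps26c, Atg3 and Pdia5, the gene lists and the tests were chosen with earlier results of these data known, so the contrast of trisomy 16 with controls is given for these 3 genes as a description. Named beside them are, in each list, genes past the threshold, genes of chromosome 16 and the 2 with the smallest p in trisomy 16; the 3 nearest tested genes on each side of each gene; the 3 tested genes most like each by Pearson's r; and the 3 chromosome 16 genes nearest to the limit on each side. Trisomy 16 and control replicates of the same number shared a first title number, so these numbers were taken as pairs. Their deviations from the group means had correlations of 0.52, 0.41 and 0.58. Trisomy 16 and control lines of unlike replicate numbers were not compared in this way, so these correlations cannot show that the pairs are real. Trisomy 13 and control lines of the same replicate number share no first title number (correlations -0.24, -0.03, -0.26 and -0.25). The 6 pairs that do share one ran from -0.10 to 0.36, 2 of them over 0.1, against -0.46 to 0.47 over the 30 pairs that do not, so these were not taken as pairs. Promoter sequences are RefSeq's (GRCm38.p6), and no gene coordinates from another build were used. Alternatives were other filters, probe set summaries, scalings, blocks, a covariate for RNA quality and leaving out arrays.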

Additional observations from a re-analysis of the deposited data

Results flagged for a closer look

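In Ts13, Pdia5 was at 11.70 in replicate 2, far above the other 3 arrays of that group (11.39 to 11.43): the gap was 0.843 of the whole range of the group. This value lies inside the control range. Chance puts about 5% of groups past this limit, and 8 groups of 4 to 10 arrays were examined.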

How the results depend on the processing

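For Vps26c in Ts16 the difference stayed between 1.13 and 1.34 over 32 alternatives. Atg3 was at 0.48 with the mean and at 0.48 with the median of its probe sets, which includes the one near the bottom of the scale, and otherwise between 0.89 and 1.01. Pdia5 was at 0.68 with the first title number as a replicate block and at 0.68 with the replicate number as a block over Ts16 and Wt replicates 1 to 3, and otherwise between 0.71 and 0.99. Small differences in the other groups changed sign: Atg3 in Ts13 to -0.055 without the 3′-biased arrays, to -0.0062 with the Gapdh difference as covariate and to a range of -0.020 to 0.13 when single arrays were left out, with the replicate number as a block Pdia5 in Ts13 to -0.059, Atg3 in Ts1 to 0.0043 and Pdia5 in Ts1 to -0.0012, and Vps26c in Ts19 to 0.034 with the first number as a block. The causes were not tested. In Ts13, Ts1 and Ts19 the replicate number joins lines to controls of unlike first title numbers. Nothing is read from that block for these groups, here or below.

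Of partner genes in Ts16, 0 passed under all 32 alternatives. In Ts13 their count of 4 became 7 with arrays centred on genes outside the trisomic chromosomes, 0 with either replicate block, 0 without the 3′-biased arrays and 1 with the covariate. Without Ts13 replicate 1, 2, 3 or 4 it was 7, 12, 1 and 0. Neighbours past the threshold were 1 with the median of probe sets, 1 with arrays centred on the median, 2 centred on genes outside the trisomic chromosomes, 1 with only the groups compared, 1 with the covariate, and 0 to 1 without single arrays (1 without Wt replicate 1 or Ts13 replicate 4).

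Over all genes in Ts16 the count of 3 became 8 without the filter, 11 with the median of probe sets, 11 and 14 with the arrays centred in those ways, 14 with the covariate, 0 with each of the 3 replicate blocks and 0 without the 3′-biased arrays. Leaving out 1 array gave 0 to 8 (Ts16 replicate 1 gave 0, replicate 3 gave 7, Wt replicate 1 gave 7, Wt replicate 9 gave 8, Ts13 replicate 4 gave 6). In Ts13 the 130 became 205 and 221 with centring, 6 and 9 with the first number and the replicate number as a replicate block, 14 without the 3′-biased arrays and 46 with the covariate. Leaving out 1 array gave 26 to 734 (Ts13 replicates 1 to 4 gave 310, 734, 41 and 26, Ts16 replicate 1 gave 209, and Wt replicates 3, 5, 6, 7 and 8 gave 80, 77, 78, 77 and 63). In Ts1 the 3 became 45 without the filter, 1 with a mean of at least 5, 1 with the mean of probe sets, 1 with quantile normalization, 6 without the trend, 0 with either replicate block, 5 without the 3′-biased arrays, 12 with the covariate and 3 to 14 without single arrays (14 without Wt replicate 9). In Ts19 the 0 became 40 without the filter.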
